A study of Mus musculus with 17 samples.

Results

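The cytosolic chaperonin CCT, also called TRiC, is built from 8 related subunits, and the genes for all 8 were followed here in alveolar epithelial type 2 (AT2) cells. They were chosen by name, as Tcp1 (the alpha subunit), Cct2 (beta), Cct3 (gamma), Cct4 (delta), Cct5 (epsilon), Cct6a (zeta), Cct7 (eta) and Cct8 (theta). Each matched 1 of the 43430 gene rows in both deposited tables, and all 8 had enough reads to be tested in both comparisons. AT2 cells, which make surfactant, were sorted by flow cytometry from C57BL/6J mice aged 2 months, and their RNA was sequenced in 17 libraries. The first experiment compared mice without lung injury given ISRIB with such mice given vehicle, 24 h after treatment, in 4 and 4 poly(A)-enriched libraries made from 3 ng of RNA. ISRIB is a small molecule that activates the translation factor eIF2B and so opposes the integrated stress response. The second experiment compared AT2 cells taken 14 days after bleomycin, a drug that injures the alveolar epithelium and causes fibrosis, with cells of naive mice. It used 5 and 4 total-RNA libraries made from 0.35 ng of RNA, whose labels give vehicle treatment and saline for naive and bleomycin mice alike. The doses of both drugs are missing from the labels, which also do not say whether replicates are separate mice, so p-values measure only the spread between these libraries. A sort of this kind enriches AT2 cells by surface markers, and the libraries hold whatever other cells passed the gate.

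CCT is a barrel of 2 stacked rings. Each ring holds every subunit once in a fixed order, and a nascent protein folds in the closed chamber as the subunits bind and hydrolyse ATP. Its best known substrates are the actins and tubulins, together with many proteins of the WD40 propeller type, among them the cell cycle factor Cdc20 and G protein beta subunits. Prefoldin hands unfolded chains to CCT, phosducin-like proteins assist it, and tubulin folding cofactors A to E assemble the folded tubulins. Because all subunits are needed for a working ring, their proteins are made in matched amounts, and most of the genes are expressed in every tissue.

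In the RefSeq promoter table (build GRCm38.p6), 7 of the 8 genes had an entry, from 250 bases before to 50 bases after each start, with 9 windows in all. The members lie on different chromosomes, so the stretches before 4 of them are shown to let their upstream sequences be compared. These were cut to bases that lie in no annotated exon. Those of Cct3 and Cct7 hold CCAAT boxes, and those of Cct2 and Cct8 hold the core of an ETS family site. These 4 genes were all called higher after bleomycin, against 11.2% of all genes tested. Cct6a, whose window holds 2 CCAAT boxes, was also called. Tcp1, whose window holds both elements, was not called, nor was Cct5, whose stretch (not shown) holds neither. A link between these elements and the levels was not tested. Capitals mark the CCAAT boxes in Cct3 and Cct7, where they read as ATTGG because they lie on the other strand, and the ETS core in Cct2 and Cct8.
Cct3, chr3:88297000-88297115, plus strand: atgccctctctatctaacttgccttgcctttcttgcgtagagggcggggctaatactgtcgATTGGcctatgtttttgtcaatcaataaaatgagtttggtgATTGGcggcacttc
Cct7, chr6:85451284-85451504, plus strand: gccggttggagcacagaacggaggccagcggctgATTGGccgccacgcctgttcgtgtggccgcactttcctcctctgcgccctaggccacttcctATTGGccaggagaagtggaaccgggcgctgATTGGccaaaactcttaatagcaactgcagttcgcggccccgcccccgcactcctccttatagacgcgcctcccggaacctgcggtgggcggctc
Cct2, chr10:117063853-117064102, minus strand: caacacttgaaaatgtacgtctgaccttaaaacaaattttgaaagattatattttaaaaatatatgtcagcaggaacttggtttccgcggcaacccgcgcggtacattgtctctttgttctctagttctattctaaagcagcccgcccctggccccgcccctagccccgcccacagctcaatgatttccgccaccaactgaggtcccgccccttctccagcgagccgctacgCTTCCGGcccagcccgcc
Cct8, chr16:87495874-87495998, minus strand: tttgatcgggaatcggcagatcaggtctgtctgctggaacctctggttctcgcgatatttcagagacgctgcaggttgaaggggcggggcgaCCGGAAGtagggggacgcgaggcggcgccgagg

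The CCAAT box occurred in 4 of the 9 member windows (of Tcp1, Cct3, Cct6a and Cct7), against 37.4% of the 32851 windows in the table. Cct7 held 3 copies, starting 187, 125 and 95 bases before its start, and Cct3 held 2, at 74 and 33 bases. The ETS core, CCGGAAG on either strand, occurred in 3 of the 9 member windows (of Tcp1, Cct2 and Cct8), against 8.9% of windows. Paired heat shock units, GAANNTTC or TTCNNGAA, occurred in 3 of the 9 (of Cct2, Cct5 and Cct6a), against 15.1% of windows. The Cct2 match lay in the other of its 2 windows, not in the stretch shown. The ATF4-type element TGATGNAA, the target of the stress factor ATF4, occurred in none, against 4.0% of windows. None held the E-box CACGTG (7.2% of windows), the cAMP response element TGACGTCA (1.8%), the triple heat shock unit (0.6%), the ZNF143 core ACTACAA (3.2%) or the long ZNF143 site (0.9%). The short cAMP site TGACG occurred in Cct6a (20.8% of windows) and the NRF1 site in Cct5 (1.0%). Both strands were searched. The short site also lies inside the cAMP response element, the paired inside the triple heat shock unit, and the ZNF143 core inside the long site. A match describes letters in these windows, and binding was not measured.

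By GENCODE M21 (GRCm38) Tcp1 (ENSMUSG00000068039) lies at chr17:12915701-12925067, Cct2 (ENSMUSG00000034024) at chr10:117051001-117063814 and Cct3 (ENSMUSG00000001416) at chr3:88297116-88321767. Cct4 (ENSMUSG00000007739) lies at chr11:22990519-23003780, Cct5 (ENSMUSG00000022234) at chr15:31590800-31601804 and Cct6a (ENSMUSG00000029447) at chr5:129786998-129846371. Cct7 (ENSMUSG00000030007) lies at chr6:85451514-85468475 and Cct8 (ENSMUSG00000025613) at chr16:87483326-87495873. Counts are for whole genes, over exons. Of the 8 genes, 5 have a protein-coding gene that starts head to head within 1000 bases on the other strand, against 10.8% of 22028 protein-coding genes. These are Cct3 with Tsacc, Cct5 with Fam173b, Cct6a with Psph, Cct7 with Pradc1 and Tcp1 with Mrpl18. The last 3 pairs share exon bases, as do Tcp1 with Acat3 and Cct8 with Usp16. The shared bases make up 2.80% (Mrpl18) to 12.49% (Psph) of the member's exon bases, and reads there could not be assigned by strand in the poly(A) libraries.

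Depth was higher in the poly(A) libraries, with totals of 10493574 to 15727139 counts, than in the total-RNA libraries, with 3295257 to 6333166. Between 0.320% and 0.470% of counts in the first and between 20.8% and 31.9% in the second came from ribosomal-RNA-like gene models. The CCT genes together had 9895 to 15417 counts per poly(A) library and 1872 to 5242 per total-RNA library. The smallest count of any member in any library was 125, for Cct8 in naive cells. All 10 AT2 markers on the list were detected, and their summed level was 212747 to 221569 CPM in poly(A) libraries. It was 89937 to 99181 CPM in naive and 53566 to 100329 CPM in bleomycin libraries. CPM are counts scaled to a common library size, by 10 to the power 6, after a filter on low counts and with TMM factors.

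After bleomycin, 5 of the 8 subunit genes were higher than in naive AT2 cells by edgeR's quasi-likelihood test (Benjamini-Hochberg adjusted p under 0.05), and none was lower. They were Cct3, Cct7, Cct6a, Cct2 and Cct8, raised 1.39-fold to 1.51-fold. Over all 11223 genes tested, 11.2% were called higher, 9.31% lower and 20.5% in either direction. The median log2 fold change was 0.50 over the 8 subunits and 0.0026 over all genes tested. The summed level of the 8 genes ran from 558 to 679 CPM in the naive and from 718 to 874 CPM in the bleomycin libraries, without overlap. In these bulk libraries a change in the share of a cell type and a change in RNA per cell cannot be told apart.

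Cct3, the gamma subunit, had 56.4, 57.0, 65.8 and 54.5 CPM in naive libraries 1 to 4 and 86.0, 97.8, 88.4, 84.2 and 84.1 CPM in bleomycin libraries 1 to 5. No naive library reached the lowest bleomycin one. Its log2 fold change was 0.59 (SE 0.12, adjusted p = 0.00128), the largest of the 8. Cct7, the eta subunit, had 82.2, 78.2, 90.4 and 75.4 CPM in naive and 103, 144, 113, 122 and 118 CPM in bleomycin libraries. The groups were again apart, with bleomycin 2 highest. For Cct7 the log2 fold change was 0.56 (SE 0.12, adjusted p = 0.00286).

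Cct6a, the zeta subunit, had 47.6, 55.1, 48.9 and 42.9 CPM in naive and 61.1, 77.6, 75.1, 60.3 and 75.5 CPM in bleomycin libraries. Bleomycin 1 and 4 were the lowest of their group, and both stayed above all naive libraries. On the log2 scale Cct6a rose by 0.52 (SE 0.13, adjusted p = 0.00813). Cct2, the beta subunit, had 67.8, 81.0, 90.7 and 64.4 CPM in naive and 94.4, 125, 113, 100.2 and 113 CPM in bleomycin libraries. The groups came close between naive 3 and bleomycin 1 but did not overlap. Its log2 fold change was 0.52 (SE 0.13, adjusted p = 0.00780). Cct8, the theta subunit, had the lowest level of the 5, with 44.6, 43.2, 49.5 and 37.3 CPM in naive and 51.6, 66.2, 58.5, 60.6 and 66.5 CPM in bleomycin libraries. Its groups did not overlap, and the log2 fold change was 0.48 (SE 0.13, adjusted p = 0.0151). The call for Cct8 was lost without naive 4 (log2 fold change 0.41, adjusted p = 0.0749). Naive 4 was the lowest naive library for all 8 subunits.

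The other 3 subunits did not pass the test. Cct5, the epsilon subunit, had 117, 110.0, 115 and 100.4 CPM in naive and 118, 132, 151, 131 and 129 CPM in bleomycin libraries. Its groups did not overlap, as was so for 6 of the 8 subunits, against 10.4% of all genes tested with every bleomycin library above every naive one. The log2 fold change of Cct5 was 0.26 (SE 0.11, adjusted p = 0.106), and without bleomycin 1 it passed the test (0.30, adjusted p = 0.0483). Tcp1, the alpha subunit and the founding member of the family, had 160.3, 152, 165 and 143 CPM in naive and 153, 180, 159, 253 and 172 CPM in bleomycin libraries. The groups overlapped, and bleomycin 4 stood above all others. The log2 fold change of Tcp1 was 0.24 (SE 0.14, adjusted p = 0.242) with all libraries and 0.10 without bleomycin 4.

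Cct4, the delta subunit, was the only gene of the 8 with a log2 fold change below 0, by less than its SE. It had 60.0, 56.6, 52.8 and 40.2 CPM in naive and 50.3, 51.4, 53.7, 41.8 and 55.0 CPM in bleomycin libraries. The bleomycin libraries lay within the naive range. The log2 fold change was -0.05 (SE 0.14, adjusted p = 0.834), with a 95% interval of -0.35 to 0.24, whose upper end lies below the estimates for the 5 genes that were called. The difference between Cct4 and the other subunits was not tested. The log2 fold change of Cct4 was 0.01 without naive 1 and 0.0099 without bleomycin 4, so its sign depended on these libraries.

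**Figure D1:**
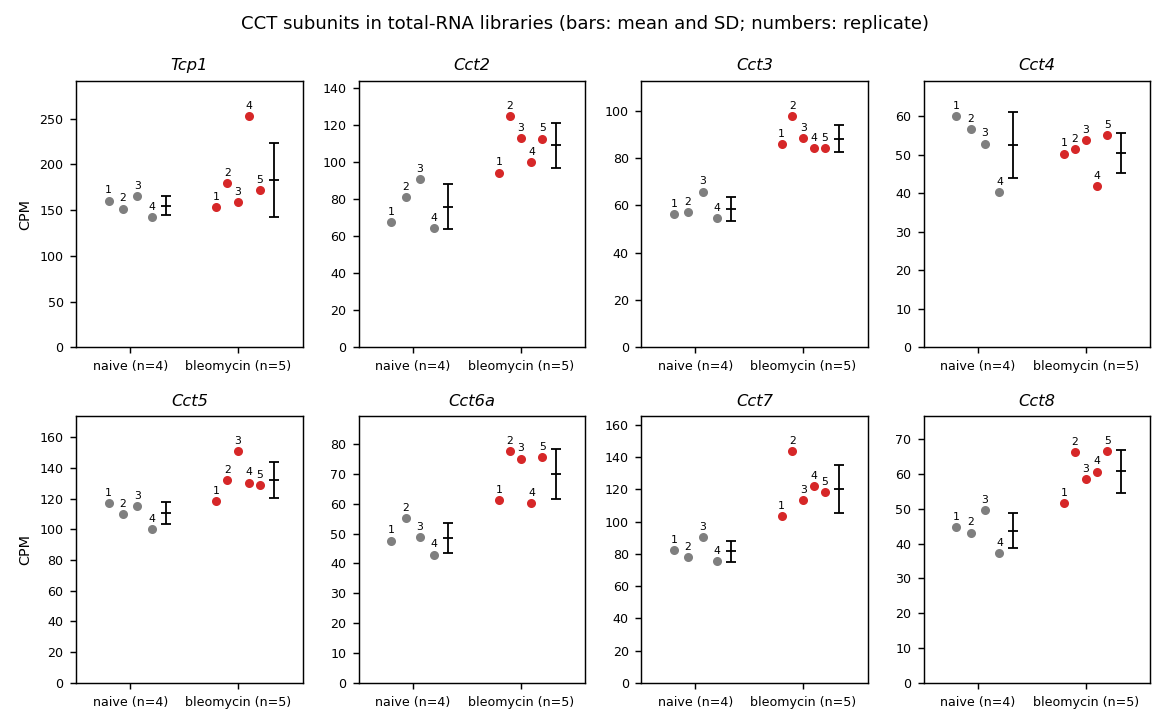
Level of each CCT subunit gene in the total-RNA libraries, in CPM (vertical axes start at 0), with 1 numbered point per library for 4 naive (grey) and 5 bleomycin (red) libraries and the mean with its SD at the right of each group. Groups are apart for 6 genes, overlap for Tcp1 and Cct4, and Tcp1 in bleomycin 4 stands at 253 CPM.

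The make-up of the CCT transcript pool was described as each gene's share of the summed CPM of the 8 genes, a quantity chosen after the levels had been seen and given without a test. Shares add up to a whole, so a rise in some lowers others. The share of Cct4 was 8.35% ± 1.03 (SD, n = 4) in naive and 6.23% ± 0.854 (SD, n = 5) in bleomycin libraries. Its ranges, 7.21% to 9.44% and 4.90% to 7.0%, did not overlap. Cct3 took 8.86% to 9.78% in naive and 9.87% to 12% in bleomycin libraries, and Cct7 took 12.4% to 13.5% and 14.0% to 16.4%. Both were above the naive range in every bleomycin library. The shares of the other 5 genes overlapped between the groups, although Tcp1, at 24.0% to 25.6% in naive libraries, was under 24.0% in every bleomycin library other than bleomycin 4, where it was 29.7%.

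**Figure D2:**
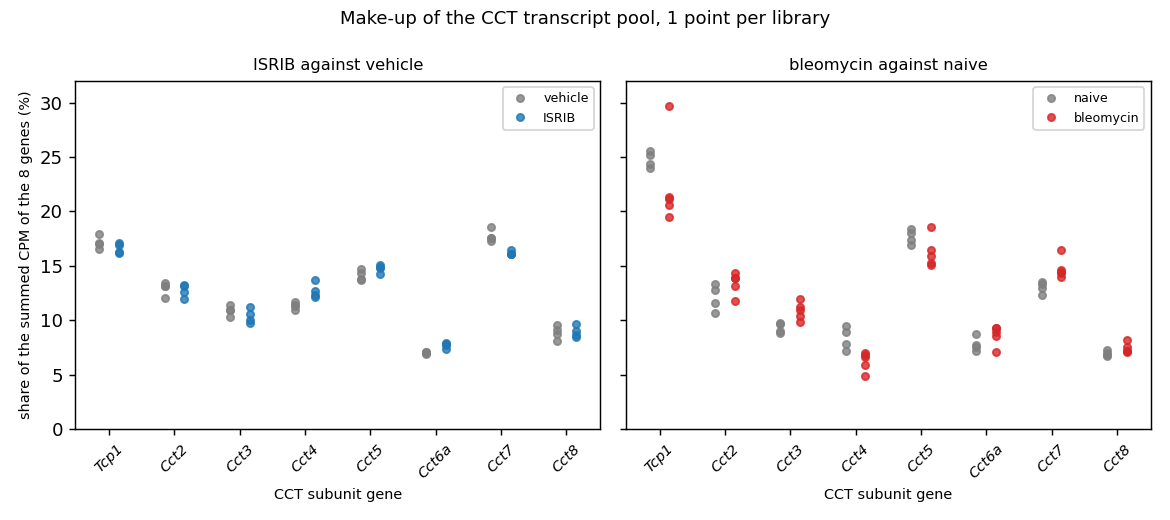
Share of each subunit gene in the summed CPM of the 8 genes, in percent, with 1 point per library for vehicle and ISRIB (left) and naive and bleomycin (right). After bleomycin the share of Cct4 lies lower (4.90% to 7.0% against 7.21% to 9.44%), and after ISRIB those of Cct4 and Cct6a lie higher and that of Cct7 lower.

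Across the 9 total-RNA libraries, which include both groups, most subunits moved together in log2 CPM. Pearson's r between pairs of subunits had a median of 0.80 over 28 pairs and ranged from -0.34 to 0.96. Cct8 followed the mean of the other subunits most closely (r = 0.98), and Cct2, Cct3, Cct5, Cct6a and Cct7 had r from 0.86 to 0.95. The value was 0.45 for Tcp1 and 0.04 for Cct4. In the 8 poly(A) libraries, where no group difference was called, the median r between pairs was 0.32, with a range of -0.08 to 0.91. These correlations describe libraries that share treatment, depth and scaling.

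Genes other than the subunits were ranked by how closely their log2 CPM followed the subunits' mean in both tables, over 8 poly(A) and 9 total-RNA libraries. Of 8787 genes with a mean of at least 5 CPM in each, Dynll1, a dynein light chain, was the most similar (r = 0.94 in poly(A) and 0.90 in total RNA). Bzw1, a regulator of translation initiation, had r = 0.93 and 0.90. Pramef8 (0.85 and 0.85), the splicing factor gene Sf3a3 (0.89 and 0.81) and Umps, an enzyme of pyrimidine synthesis (0.84 and 0.81), came next. Pseudogenes and genes with only a clone-type or predicted name were left out of the ranking. Of these 5, Dynll1 (log2 fold change 1.18), Bzw1 (0.58) and Umps (0.78) were called higher after bleomycin, against 11.2% of all genes tested. The ranking pooled both groups, and the subunits' mean was higher in every bleomycin library than in any naive one. Genes picked this way tend to be higher after bleomycin, so nothing is read from these calls.

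After ISRIB, 0 of the 8 subunit genes passed edgeR's test, against 2.2% of 12054 genes tested (1.1% higher and 1.1% lower). DESeq2 and limma-voom also called 0. At an unadjusted p under 0.05 there were 2 members, Cct4 and Cct6a, against 16% of all genes tested. The median log2 fold change was 0.04 over the 8 subunits and -0.00014 over all genes tested. The summed level was 908 to 960 CPM with vehicle and 882 to 1000 CPM with ISRIB, so that the groups overlapped.

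Cct4 had 104, 103, 107 and 109 CPM in vehicle libraries 1 to 4 and 125, 107, 134 and 123 CPM in ISRIB libraries 1 to 4. ISRIB 2 lay within the vehicle range and the other ISRIB libraries above it. The log2 fold change was 0.21 (SE 0.06, adjusted p = 0.0956), with a 95% interval of 0.08 to 0.34. Without ISRIB 2 it was 0.27 (adjusted p = 0.0234), and Cct4 was then called. Cct6a had 67.2, 62.4, 64.3 and 67.0 CPM with vehicle and 72.5, 69.0, 77.2 and 76.9 CPM with ISRIB. It was the 1 subunit whose groups did not overlap, against 4.26% of all genes with every ISRIB library above every vehicle one. Its log2 fold change was 0.18 (SE 0.06, adjusted p = 0.123), with a 95% interval of 0.06 to 0.30.

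The other 6 subunits overlapped between vehicle and ISRIB. Cct5 had 125 to 141 CPM with vehicle and 131 to 148 CPM with ISRIB (log2 fold change 0.11, adjusted p = 0.367). Cct7 had 157 to 178 CPM and 142 to 162 CPM (log2 fold change -0.09, adjusted p = 0.493). These 2 values bound the remaining estimates, which were -0.0014 for Tcp1, 0.02 for Cct2, -0.03 for Cct3 and 0.05 for Cct8. The 95% intervals of these 6 ran from -0.21 (Cct7) at the lowest to 0.23 (Cct5) at the highest. ISRIB 2 was the lowest ISRIB library for all 8 subunits. The 10 macrophage and monocyte markers summed to 1982 to 2342 CPM in vehicle and 2025 to 3954 CPM in ISRIB libraries, of which Lyz1, a lysozyme gene, alone made up 1972 to 2335 CPM and 2017 to 3946 CPM. Lyz1 did not pass the test (log2 fold change 0.44, adjusted p = 0.186). Of the other markers Cd68 averaged 4.54 CPM with vehicle and 4.95 CPM with ISRIB, Chil3 was called lower (1.24 and 0.349 CPM), and C1qa was at 0.

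**Figure D3:**
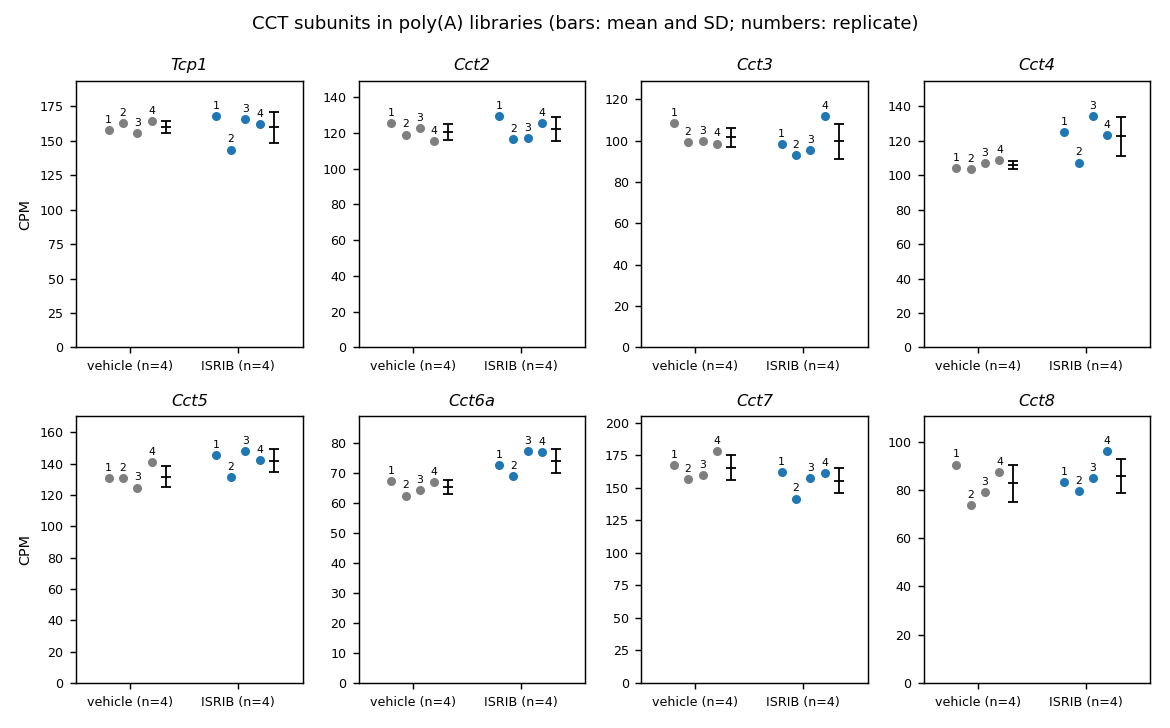
Level of each CCT subunit gene in the poly(A) libraries, in CPM (vertical axes start at 0), with 1 numbered point per library for 4 vehicle (grey) and 4 ISRIB (blue) libraries and the mean with its SD at the right of each group. Only Cct6a has groups that do not overlap, and ISRIB 2 is the lowest of its group for every gene.

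**Figure D4:**
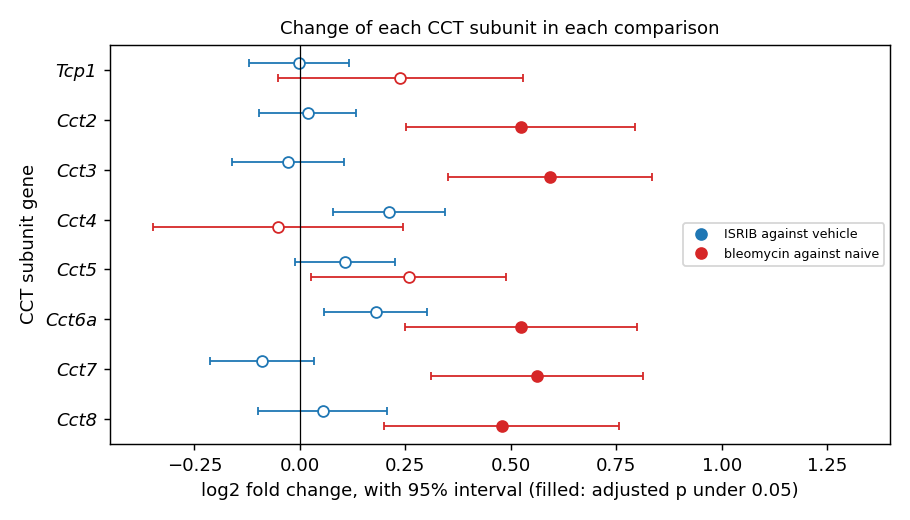
Log2 fold change of each subunit with its 95% interval for ISRIB against vehicle (blue) and bleomycin against naive (red), where filled points passed the test at an adjusted p under 0.05. The 5 filled points lie between 0.48 and 0.59, and no ISRIB point is filled.

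In the shares of the summed CPM, Cct4 took 11% to 11.7% with vehicle and 12.2% to 13.7% with ISRIB, and Cct6a took 6.87% to 7.06% and 7.37% to 7.88%. Cct7 took 17.3% to 18.5% and 16.1% to 16.4%. The ranges of these 3 genes did not overlap and those of the other 5 did. The shares depend on each other, were chosen after the levels had been seen and were not tested. In CPM only Cct6a had groups apart, and none of the 3 genes was called. Cct4 thus had a higher share after ISRIB and a lower one after bleomycin, each against its own control. The 2 comparisons used different kits, animals and controls, and the difference between them was not tested.

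Levels were compared between subunits as CPM per kilobase of the principal transcript. In vehicle cells the order was Cct5, with 71.1 ± 3.64 (SD, n = 4), then Cct7 (67.8), Tcp1 (65.4), Cct2 (61.6), Cct3 (51.4), Cct4 (42.6), Cct8 (34.6) and Cct6a, with 26.6 ± 0.926 (SD, n = 4). Neighbours from Cct5 to Cct2 overlapped in their ranges over libraries, and each of the later ones was apart from its neighbour. With ISRIB, Tcp1 and Cct7 changed places, overlapping in range (58.6 to 68.7 and 58.0 to 66.3), and the rest of the order was that of vehicle.

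In naive cells, measured in total RNA, the order was Tcp1 (63.4 ± 4.07, SD, n = 4), Cct5 (59.7), Cct2 (38.8), Cct7 (33.4), Cct3 (29.6), Cct4 (21.1), Cct6a (19.8) and Cct8 (18.2 ± 2.11, SD, n = 4). Gaps in range separated Cct5 from Cct2 and Cct3 from Cct4, and the other neighbours overlapped. After bleomycin the first 5 genes kept this order (74.9, 71.3, 55.7, 49.2 and 44.6). Cct6a (28.5) and Cct8 (25.4) followed, and Cct4 (20.3) came last. The ranges of Cct3 and Cct6a were apart, and those of all other neighbours overlapped. Levels of the 2 kits were not set against each other, since poly(A) selection and total RNA count different transcripts. The order depends on the length used. With the length of all exons joined, Cct5 stayed first in vehicle cells. There Cct7 moved from place 2 to place 6 and Cct3 from place 5 to place 8. In naive cells Cct5 then came first and Tcp1 second. There Cct8 moved from place 8 to place 4 and Cct3 from place 5 to place 8.

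**Figure D5:**
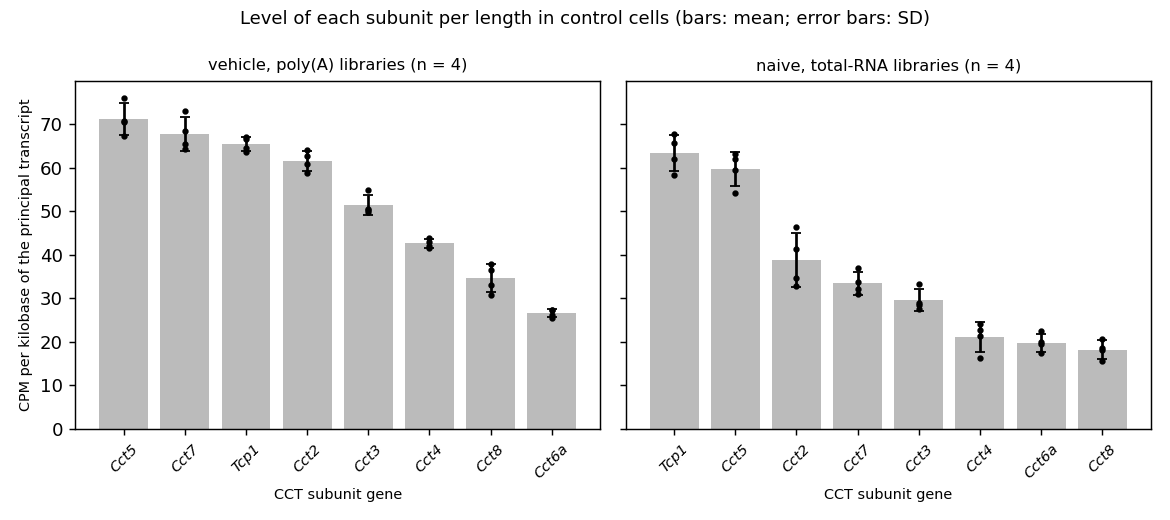
Level of each subunit gene in control cells, as CPM per kilobase of its principal transcript (axis from 0), for vehicle cells in poly(A) libraries (left) and naive cells in total-RNA libraries (right), with bars for means, error bars for SD and points for the 4 libraries. Cct5 (71.1) leads on the left, and Tcp1 (63.4) and Cct5 (59.7) lead on the right. By this length Cct6a and Cct8 are the lowest in both.

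The counts for the lists of substrates and partners stand beside 11.2% of all genes called higher and 9.31% called lower after bleomycin, and nothing is read from 0 lower in lists of this size. Of 11 tubulin genes tested, 5 were called higher and 0 lower, with a median log2 fold change of 0.69. Tubb5, the most abundant of them by its mean over the 9 libraries, rose from 72.6 ± 7.98 CPM (SD, n = 4) to 143 ± 31.5 CPM (SD, n = 5), a log2 fold change of 0.98 (adjusted p = 0.000191). Tubb2a rose by 1.64, Tubb6 by 3.00, Tuba8 by 1.54 and Tubb4b by 0.50 on the log2 scale. Tubb6 and Tuba8 were low, at a mean of 0.588 and 3.45 CPM in naive cells. Of 7 actin and actin-related genes, 2 were called, both higher. These were the cytoplasmic actins Actb (log2 fold change 0.98, from 1231 to 2432 CPM) and Actg1 (0.84, from 45.7 to 81.6 CPM). The actin-related genes, which form the Arp2/3 and dynactin complexes or act in chromatin, had log2 fold changes of 0.01 (Actr1b) to 0.31 (Actr1a) and did not pass.

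Of 14 other reported clients, 3 were called, all higher, a share close to the 20.5% of all genes called in either direction, and the median was 0.27. Cdc20, which activates the anaphase-promoting complex, rose by 2.72 on the log2 scale, from 3.10 to 20.0 CPM. Gnb4, a G protein beta subunit, rose by 1.44 and Strap, a WD40 protein of the SMN complex, by 0.70. Gnb1, the most abundant client by its mean over the 9 libraries, had a log2 fold change of 0.29 (adjusted p = 0.0783).

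Helpers of CCT included genes of both signs. Among 6 prefoldin subunits, Pfdn1 was called higher (log2 fold change 0.99, from 26.1 to 51.8 CPM) and Pfdn5, the most abundant by its mean over the 9 libraries, had -0.54 (adjusted p = 0.0928). The list's median was 0.08. Without bleomycin 3, 2 prefoldin genes were called. Of 3 phosducin-like genes tested, edgeR, DESeq2 and limma-voom called 0, as did an unadjusted p under 0.05, and Pdcl, the most abundant, had 0.10. Of 5 tubulin folding cofactors these tools called 0 (median 0.28, and 0.19 for Tbcd), and edgeR called 1 without bleomycin 4. At an unadjusted p under 0.05 by edgeR there were 2 cofactors, against 33.3% of all genes tested. Nothing is read from this count. The chaperonin-like gene Mkks had -0.38 (adjusted p = 0.306). The paralogs Cct6b and Cct8l1 were too low to be tested in either comparison, at means of 0.225 and 0.0534 CPM in naive cells. Among 14 cytosolic heat shock genes, 8 were called higher and 0 lower (median 0.52). Hsp90aa1 (0.94), Hsp90ab1 (0.76), the HSP70 to HSP90 adaptor Stip1 (0.74), Hspa4 (0.44) and Hsph1 (1.36) had the lowest p. Of the 3 genes of the mitochondrial folding machinery, Hspa9 (0.46) and Hspd1 (0.52), the mitochondrial counterpart of CCT, were called. Hspd1 was near the threshold (adjusted p = 0.0479), and 1 gene of this list was called when any of naive 1, 2 and 4 or bleomycin 1, 2 and 3 was left out.

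After ISRIB no subunit was called, while 6 of the 14 cytosolic heat shock genes were called higher and 0 lower. Over all genes tested, 1.1% were called higher and 1.1% lower. The 6 included Hsph1 (log2 fold change 1.20, adjusted p = 0.00479), Dnaja1 (0.89), Hspa1b (2.71), Hspa1a (2.57) and Dnajb1 (0.69). Only Hsph1 had groups that did not overlap. Hspa1a ran from 5.61 to 67.6 CPM with ISRIB and from 2.28 to 15.3 CPM with vehicle. Hsp90ab1, the most abundant gene of the list, had -0.0023 (adjusted p = 0.993). Hspa1a and Hspa1b are near-identical copies, so reads may be split between them. DESeq2 and limma-voom each called 4 of the heat shock genes. With edgeR the count was 2 without vehicle 1 or without vehicle 2 and 3 without ISRIB 3. Tubb5 was called lower (log2 fold change -0.33, adjusted p = 0.0487), and without 1 library at a time the tubulin count was 0 for each library other than vehicle 3. Tubb4b, the most abundant tubulin gene here, had -0.13 (adjusted p = 0.221). Among the prefoldin, phosducin-like, BBS-type, cofactor, actin, client and mitochondrial lists, edgeR called 0 genes after ISRIB, and at an unadjusted p under 0.05 there were 1 cofactor and 2 clients. DESeq2 and limma-voom also called 0 in these lists.

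Genes of other lists also differed after bleomycin. Over all genes tested, 11.2% were called higher, 9.31% lower and 20.5% in either direction. Of 12 proliferation genes tested, 9 were called higher and 0 lower, and their summed level was 73.6 to 121 CPM in naive and 366 to 570 CPM in bleomycin libraries. Naive 4 had the lowest and bleomycin 2 the highest sum, as for the summed CCT genes. The highest naive library was naive 2 for proliferation (121 CPM) and naive 3 for CCT (679 CPM). The lowest bleomycin library was bleomycin 3 for proliferation (366 CPM) and bleomycin 1 for CCT (718 CPM). The part of dividing cells in the CCT values was not tested, and nothing is read from the order of the libraries. Of 7 alveolar type 1 markers, 5 were called higher, with sums of 1031 to 1259 CPM and 1521 to 1887 CPM. Of 7 fibroblast markers 3 were tested and all 3 were called higher. Their sums were 3.87 to 10.1 CPM in naive libraries and 17.5 to 115 CPM after bleomycin, with 54.5 in bleomycin 1 and 115 in bleomycin 2, and Lum was at 0 throughout. Of the 10 AT2 markers, Sftpd and Napsa were called higher and Etv5 lower, and nothing is read from this count. The AT2 sums of bleomycin 1 and 2 were the lowest, at 53566 and 63192 CPM, against 82287 to 100329 CPM in bleomycin 3 to 5. Without bleomycin 1 and 2 together, 6 CCT genes were called higher, the 5 named above and Cct5. This alternative was added after the data had been seen, and the same 6 were called without bleomycin 1 alone. The part of other cells in the CCT values was not tested. Macrophage and monocyte markers summed to 686 to 852 CPM in naive and 233 to 711 CPM in bleomycin libraries. Nearly all of this was Lyz1, with 678 to 844 CPM and 223 to 706 CPM, the 1 gene of the list called lower. Cd68 averaged 3.35 and 4.28 CPM (log2 fold change 0.36, adjusted p = 0.610), and Marco and C1qa were at 0. Lymphocyte and neutrophil markers stayed under 2 CPM in sum. For 2 further lists, 1 of 4 endothelial genes and 1 of 4 airway genes tested were called higher. Nothing is read from counts this small.

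None of the head-to-head or overlapping neighbours that could be tested was called in either comparison. After bleomycin, Pradc1, which overlaps Cct7, had 7.65 CPM on average, against 10.2 in naive cells (log2 fold change -0.43, SE 0.35, adjusted p = 0.424). Psph, beside Cct6a, had -0.37 (adjusted p = 0.705), and Mrpl18, beside Tcp1, had 0.33 (adjusted p = 0.168). Fam173b, beside Cct5, had -0.70 (adjusted p = 0.171). Usp16, which overlaps Cct8 and was the more abundant of that pair in naive cells (64.1 against 43.6 CPM), had -0.05 (adjusted p = 0.850). Tsacc, beside Cct3, Acat3, beside Tcp1, and the small nucleolar RNA genes in Tcp1 and Cct6a were too low to test.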

How the data were processed

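RNA sequencing was done on 17 libraries of sorted AT2 cells. The deposited values are raw counts per gene, 1 table per library kit, read from the values as whole numbers with different sums. Per the submitters' processing notes, bcl2fastq 2.19.1, FastQC, Trimmomatic 0.36, STAR 2.6.0, HTSeq 0.11.2 and the build mm10 were used. The sources used here do not give their settings, the annotation or whether HTSeq used strand. RNA was extracted with PicoPure, and the kits were NEBNext Ultra after poly(A) selection (which does not mark strand) and SMARTer Stranded Pico v2, per the labels' protocols.

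Genes were mapped by ID to GENCODE M21. Each comparison was fitted on its own libraries, with group as the only term, using filterByExpr (minimum count 10, total 15), TMM factors and the two-sided quasi-likelihood test of edgeR 4.0.16 in R 4.3.3, adjusted by Benjamini-Hochberg over all genes tested. The SE is the log2 fold change divided by the root of F. Correlations used log2(CPM + 0.5). The procedure was tested on simulated data. Alternatives were DESeq2 1.42.0, limma 3.58.1 (voom), RLE factors, no filter, a replicate block, removal of ribosomal-RNA-like and mitochondrial models, and leaving out libraries. Every subunit is named. From each list of partners or substrates, up to 5 called genes with the lowest p and the most abundant gene are named. Levels per kilobase used the APPRIS principal transcript, or for Cct6a, which has none in M21, its longest transcript without a retained intron. The members and lists were chosen with earlier results of these data known, and the promoter motifs and neighbouring genes after the annotation and sequences had been seen. Lists are described by counts and medians only.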

Additional observations from a re-analysis of the deposited data

Results flagged for a closer look

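Each subunit was checked for a library far from the rest of its group, in 32 combinations of gene and group. Chance picks out about 1 group in 20 by this measure, and 2 were picked out. Tcp1 had 253 CPM in bleomycin 4, against 153 to 180 CPM in the other 4 bleomycin libraries, and the log2 fold change of Tcp1 was 0.10 without that library. Cct3 had 108 CPM in vehicle 1, against 98.6 to 99.9 CPM in the other 3 vehicle libraries.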

How the results depend on the processing

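After bleomycin, 5 subunits were called with no filter, RLE factors, DESeq2, limma-voom and without ribosomal-RNA-like and mitochondrial models, and 4 to 6 when 1 library was left out. The count was 6 without bleomycin 1 and 2 together, an alternative added after the data had been seen. Cct2, Cct3, Cct6a and Cct7 were called in all 16 alternatives, with a highest adjusted p of 0.0457 (Cct2). No pairing by replicate number was seen, with correlations of same-numbered libraries at -0.11 to 0.08 for ISRIB and -0.04 to 0.05 for bleomycin. With the replicate block, where bleomycin 5 has no partner, 4 subunits were called (Cct8 at adjusted p = 0.0519) and 2187 genes in all, against 2304. The block gave 0 subunits and 277 genes for ISRIB, against 265. For ISRIB, 1 subunit (Cct4, adjusted p = 0.0368) was called with no filter, when 648 genes were called in all, and 0 to 1 when 1 library was left out, while all calls numbered 86 to 269. DESeq2 called 397 genes. Signs of uncalled values changed when 1 library was left out, over -0.025 to 0.047 for Tcp1, -0.0095 to 0.042 for Cct2 and -0.085 to 0.0050 for Cct3 after ISRIB, and -0.16 to 0.014 for Cct4 after bleomycin. The median over all genes after bleomycin was -0.27 with no filter and -0.29 with DESeq2, which add low-count genes. Of 261 list counts, 233 were within 1.5 times the main count or equal to it, which includes lists at 0 in both. The number therefore says little about lists with calls. For ISRIB the tubulin count was 1 in the main test, 0 with limma-voom and 2 with DESeq2. The lowest count of a member in any library was 125, and libraries of a group varied by 7.66% (ISRIB) and 21.1% (bleomycin), as the common biological coefficient of variation of edgeR.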
